A study of Mus musculus with 6 samples.

Results

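Expression of 10 claudin genes (*Cldn1*, *Cldn2*, *Cldn3*, *Cldn4*, *Cldn7*, *Cldn8*, *Cldn10*, *Cldn12*, *Cldn16* and *Cldn19*) was examined in mouse kidneys after renal ischemia-reperfusion injury (IRI). Each had 1 row among the 21367 genes measured, which also include 23 other claudin genes. The 10 were chosen by gene family and nephron segment at a time when the difference between the groups in these same counts and FPKM values was known, so that difference is a description of these genes and not independent evidence. Kidneys of 3 *Ptpn6*+/mev mice and of 3 wild-type littermates, all C57BL/6J and 7 weeks old, were sequenced. *Ptpn6* encodes the tyrosine phosphatase SHP-1, and the heterozygous viable motheaten mutation is germline, hence not limited to any kidney cell type; the labels also call this genotype an SHP1 knockdown. Both groups underwent the same surgery, in which removal of the right kidney was followed by 34 min of ischemia of the left kidney and 24 h of reperfusion. No uninjured kidney was analysed here. Each library held poly-A mRNA of the left kidney of 1 mouse.

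Claudins are membrane proteins that link neighbouring epithelial cells at the tight junction, and the set present in a nephron segment determines which ions, and how much water, pass between the cells. Claudin-2 forms a cation and water pore in the proximal tubule. Claudin-10, claudin-16 and claudin-19 govern cation passage in the thick ascending limb, and claudin-3, claudin-4, claudin-7 and claudin-8 belong to the tighter distal nephron and collecting duct. Claudin-1 is best known in the kidney from the parietal cells of Bowman's capsule, and claudin-12 is found more widely.

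Promoter windows were matched in RefSeq (GRCm38.p6) for 9 of the 10 genes, *Cldn8* having none. The 250 bases before the start are shown for the 4 genes on which the comparisons turn, *Cldn1* with the clearest difference between the groups, *Cldn2* as the most abundant, and the partner genes *Cldn16* and *Cldn19*. Each is written 5′ to 3′ on the strand of its gene, and capitals mark a match to any of 4 motifs searched on both strands.
*Cldn1*, chr16:26371840-26372089, minus strand: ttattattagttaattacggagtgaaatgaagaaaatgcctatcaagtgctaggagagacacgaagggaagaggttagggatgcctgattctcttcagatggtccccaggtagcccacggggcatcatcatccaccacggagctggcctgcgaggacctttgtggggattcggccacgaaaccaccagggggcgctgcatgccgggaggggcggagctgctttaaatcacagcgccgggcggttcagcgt
*Cldn2*, chrX:139800558-139800807, plus strand: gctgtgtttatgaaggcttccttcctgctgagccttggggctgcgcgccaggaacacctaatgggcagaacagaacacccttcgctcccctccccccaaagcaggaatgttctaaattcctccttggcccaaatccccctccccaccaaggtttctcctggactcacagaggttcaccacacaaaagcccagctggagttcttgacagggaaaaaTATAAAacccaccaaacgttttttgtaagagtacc
*Cldn16*, chr16:26462885-26463134, plus strand: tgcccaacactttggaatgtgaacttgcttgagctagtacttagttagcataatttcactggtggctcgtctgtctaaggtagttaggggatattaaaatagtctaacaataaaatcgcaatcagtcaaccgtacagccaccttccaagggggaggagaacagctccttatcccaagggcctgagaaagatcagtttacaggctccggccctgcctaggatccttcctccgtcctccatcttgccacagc
*Cldn19*, chr4:119255191-119255440, plus strand: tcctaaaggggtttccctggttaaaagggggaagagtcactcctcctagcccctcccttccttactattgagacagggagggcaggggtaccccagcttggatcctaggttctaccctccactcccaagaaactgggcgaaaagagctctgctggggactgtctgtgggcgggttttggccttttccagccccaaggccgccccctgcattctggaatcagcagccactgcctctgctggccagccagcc
The motifs were TATAAA (the TATA box), CAGGTG (an E-box bound by Snail factors), AACNGGTT (bound by grainyhead-like factors) and TGANTCA (bound by AP-1), none of which contains another. Among 32851 windows of this length, 12.4% held TATAAA, 17.2% CAGGTG, 1.79% AACNGGTT and 6.75% TGANTCA. *Cldn2* had TATAAA between 35 and 30 bases before its start, and the windows shown for *Cldn1*, *Cldn16* and *Cldn19* held none of the 4 motifs. Of the windows not shown, that of *Cldn4* held TGANTCA in 2 places and CAGGTG in 1, and 1 of the 2 windows of *Cldn7* held CAGGTG in 2 places. These are matches of letters, and binding was not measured.

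For every gene the table holds a count and its FPKM, which scales the count to transcript length and library total. Totals ranged from 10271590 to 12361745 counts, and none of the 10 genes had a fractional count. Values of a gene are given below in the order of replicates 1 to 3 of each group. Wild-type replicate 2 stood apart from the other libraries. Its summed FPKM over 6 endothelial markers was 88.3 against 225.9 to 258.0 elsewhere, and over 5 fibroblast markers 32.4 against 101.8 to 172.0, while *Aqp2* of the collecting duct was 430.8 against 121.6 to 227.5. *Ptpn6* did not separate the groups, with an FPKM of 11.9, 14.7 and 13.6 in heterozygous and 17.5, 10.9 and 15.4 in wild-type mice (log2 fold change -0.19, standard error 0.17, FDR = 0.715 with edgeR), so its mRNA level does not check the genotype labels. Its log2 fold change was -0.34 to -0.062 with 1 library left out. In whole kidneys, fewer cells of a type and less RNA per cell cannot be told apart.

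The claudins were ordered by FPKM, a level per length. *Cldn2* came first in every mouse, with 132.6 to 240.1, followed by *Cldn4* with 90.2 to 131.6, and these ranges overlapped neither each other nor that of the next gene. *Cldn10* (51.7 to 76.4) and *Cldn7* (44.5 to 68.3) overlapped, *Cldn10* being the higher in 4 of 6 mice. *Cldn1* (16.7 to 41.1) and *Cldn3* (22.2 to 34.7) exchanged places between the groups, with *Cldn1* above *Cldn3* in each *Ptpn6*+/mev mouse and below it in each wild-type mouse. *Cldn12* (16.8 to 20.8), *Cldn19* (10.6 to 30.7) and *Cldn8* (10.2 to 19.2) each overlapped the next gene in the order, which ended with *Cldn16* (5.15 to 13.6), although *Cldn8* was above *Cldn16* in all 6 mice. The summed FPKM of the 10 genes was 490.6 to 540.9 in *Ptpn6*+/mev mice and 529.7 to 546.9 in wild-type mice.

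**Figure D1:**
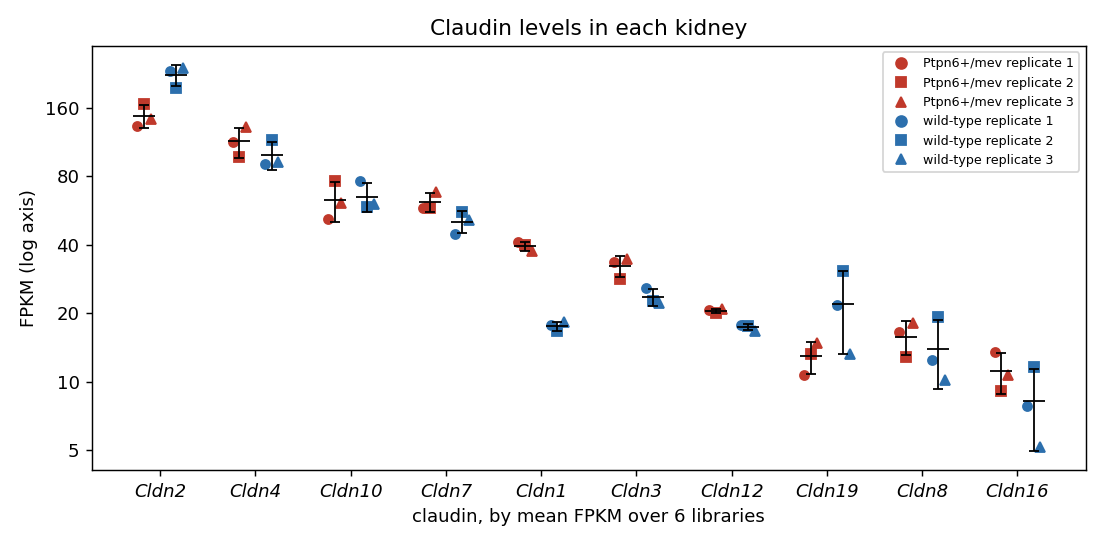
FPKM (log axis) of each of the 10 claudins in each mouse, ordered by the mean over 6 libraries; red, *Ptpn6*+/mev; blue, wild-type; marker shapes, replicates; black marks, mean and SD of 3 mice. *Cldn1* lay between 37.6 and 41.1 in *Ptpn6*+/mev mice and between 16.7 and 18.3 in wild-type mice, and *Cldn2* was lower in all 3 *Ptpn6*+/mev mice.

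The counts of 13036 genes entered edgeR's quasi-likelihood test of *Ptpn6*+/mev against wild-type mice. An FDR under 0.05 was reached by 0.138% of them (0.0690% with the higher level in *Ptpn6*+/mev mice) and an unadjusted p under 0.05 by 12.2%. All 10 claudins passed the filter on low counts. *Cldn1* was the 1 claudin called, and 4 of the 10 had an unadjusted p under 0.05, *Cldn1* and *Cldn3* upward and *Cldn2* and *Cldn19* downward. The median log2 fold change of the 10 was 0.14, against -0.002 over all tested genes. In 5 of the 10 the FPKM of the groups did not overlap, as in 20.4% of tested genes. Of these 5, *Cldn1*, *Cldn3*, *Cldn7* and *Cldn12* were higher in *Ptpn6*+/mev mice (14.0% of tested genes) and *Cldn2* was lower (6.38% of tested genes). Since this contrast was known when the genes were chosen, nothing is read from these shares.

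**Figure D2:**
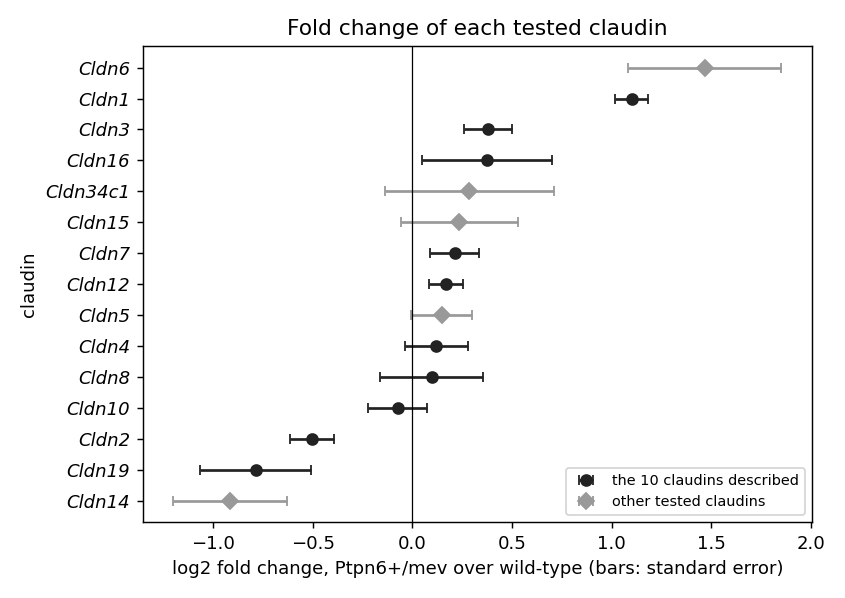
Log2 fold change of *Ptpn6*+/mev over wild-type mice (x axis) for the 15 tested claudins, with the standard error from edgeR's quasi-likelihood fit; black, the 10 claudins described; grey, the 5 other tested claudins. *Cldn1* stood at 1.10 with a standard error of 0.08, and *Cldn19* and *Cldn2* stood below 0.

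*Cldn1* was higher in *Ptpn6*+/mev mice. The gene (chromosome 16, 26356642 to 26371841 on the minus strand of GRCm38) has 4 exons in its single coding transcript. Its FPKM reached 41.1, 39.7 and 37.6 in the *Ptpn6*+/mev kidneys, compared with 17.7, 16.7 and 18.3 in the wild-type kidneys. The groups were well apart and each was narrow, with means of 39.5 ± 1.79 for *Ptpn6*+/mev and 17.5 ± 0.79 for wild-type (SD, n = 3 each). The counts behind these values were 1376, 1341 and 1317 against 621, 597 and 735. The log2 fold change was 1.10 (standard error 0.08), a 2.15-fold difference, with an FDR of 0.0044 in edgeR's quasi-likelihood test, at rank 3 by p among the tested genes. Leaving out each library in turn gave log2 fold changes of 1.07 to 1.14 and edgeR FDR values from 7.6e-04 to 0.0694. The lowest FDR came with wild-type replicate 2 left out and the highest with *Ptpn6*+/mev replicate 3 left out. *Cldn1* made up 7.64% ± 0.72 of the summed FPKM of the 10 claudins in the heterozygous group and 3.25% ± 0.19 in the wild-type group (SD, n = 3 each).

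The neighbour of *Cldn1* on chromosome 16 is *Cldn16*, 91293 bases away with 0 coding genes between them, and the groups of *Cldn16* overlapped. The 5 genes with the pattern most like that of *Cldn1* were sought by Pearson's r of log2(FPKM + 1) over the 6 libraries among 13026 other tested genes. They were *Serpinb9b*, *Mmp10*, *Bub1b*, *Dynlt1b* and *Amd2*, with r from 0.994 to 0.996. Their FDR values in edgeR's quasi-likelihood test were 0.0398, 0.0685, 0.110, 0.0044 and 2.2e-04 in that order. Levels were low for *Serpinb9b* (0.25 to 1.34 FPKM), *Mmp10* (0.37 to 2.2) and *Bub1b* (0.89 to 1.99). As many as 3.25% of the genes compared had an r above 0.9, and the libraries share the 2 groups, so r here largely describes the separation of the groups. *Dynlt1b* and *Amd2* had fractional counts, so their levels are uncertain if reads are shared with similar genes.

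Markers of tubular injury and of podocytes were read beside *Cldn1*. Of 11 injury markers, 0 had an FDR under 0.05 with edgeR's quasi-likelihood test, 4 had an unadjusted p under 0.05 upward and 1 downward, the exact test called 1 and DESeq2 2. The keratin *Krt18* had an FPKM of 147.3, 130.6 and 181.9 against 90.6, 111.7 and 96.6 (log2 fold change 0.55, FDR = 0.196), with all *Ptpn6*+/mev mice above all wild-type mice, and the groups of *Havcr1*, *Krt8* and *Vcam1* were apart in the same direction. The most abundant, *Spp1*, *Clu* and *Lcn2*, had log2 fold changes of -0.38, 0.08 and -0.08. The summed FPKM of the list was 26969 to 33007 in *Ptpn6*+/mev mice and 30217 to 39046 in wild-type mice. This sum mostly follows *Spp1*, which alone was 20881 of the 26969 in *Ptpn6*+/mev replicate 1. Over the 11 markers the median log2 fold change was 0.16, with 8 above 0 and 3 below. Of 5 podocyte markers, 0 were called by either edgeR test or by DESeq2 and 1 had an unadjusted p under 0.05, upward. All 5 had log2 fold changes above 0, with a median of 0.19, and those of *Podxl* and *Synpo* were 0.19 and 0.10. The FPKM groups of 1 of the 5 were apart, with the higher values in *Ptpn6*+/mev mice. The summed podocyte FPKM was 118.9 to 151.9 and 84.9 to 130.2, the lowest in wild-type replicate 2. The part of these markers in the difference of *Cldn1* was not tested.

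*Cldn2*, the proximal tubule claudin (chromosome X, 139800828 to 139811386), was lower in all 3 *Ptpn6*+/mev mice, but its FDR was above 0.05 in the main test. Its FPKM came to 132.6, 167.0 and 143.3 in *Ptpn6*+/mev and 232.8, 196.6 and 240.1 in wild-type kidneys. Every *Ptpn6*+/mev mouse was below every wild-type mouse. The log2 fold change was -0.50 (standard error 0.11), with an FDR of 0.122 by the quasi-likelihood test of edgeR, 0.0213 by its exact test and 0.0065 by DESeq2. Leaving out 1 library gave -0.62 to -0.43. *Cldn2* made up 28.5% ± 3.03 of the summed claudin FPKM in the heterozygous group and 41.3% ± 4.77 in the wild-type group (SD, n = 3 each).

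For *Cldn2* the size of the difference depended on the unit. The length implied by a count, its FPKM and the library total was 2505 and 2529 bases in wild-type replicates 1 and 3 and 2905 to 3054 bases in the other 4 libraries, and a shorter length raises FPKM at the same count. In CPM, the count scaled to the library total without any length, *Cldn2* stood at 399.6, 510.1 and 416.1 in *Ptpn6*+/mev and 583.0, 597.0 and 607.2 in wild-type kidneys. The groups were apart on this scale too. *Cldn2* has 3 annotated coding transcripts of 290 to 3044 bases, whereas *Cldn1*, *Cldn3*, *Cldn4* and *Cldn8* have 1 each and hardly any spread in implied length. The largest implied length of *Cldn2* was 1.22 times its smallest, a wider spread than in 88.1% of the 9130 tested genes with at least 100 counts in every library. Which *Cldn2* transcripts were present cannot be read from gene-level values.

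**Figure D3:**
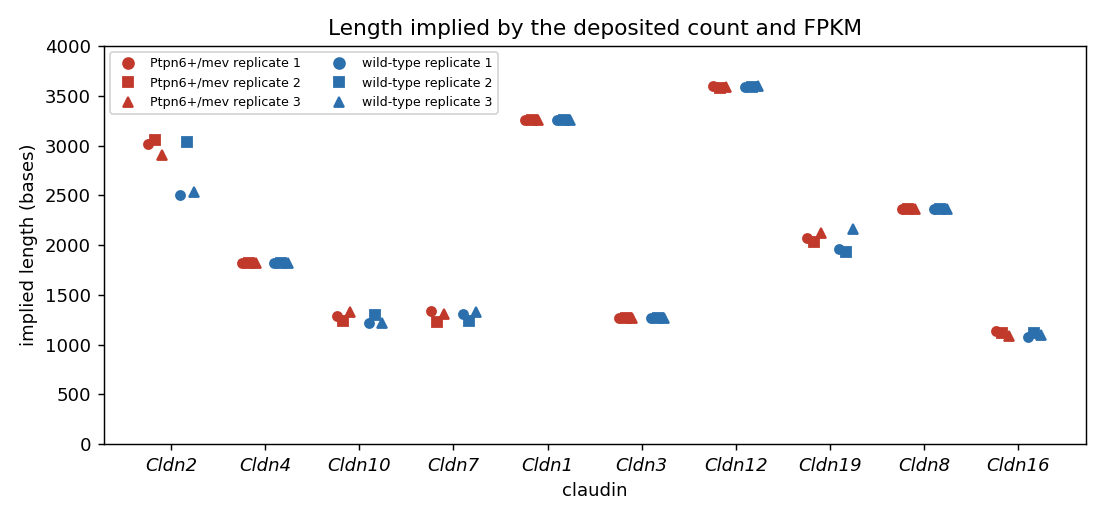
Length in bases implied by the deposited count, FPKM and library total for each claudin in each mouse; red, *Ptpn6*+/mev; blue, wild-type; marker shapes, replicates. *Cldn2* read 2505 and 2529 bases in wild-type replicates 1 and 3 and 2905 to 3054 bases in the other 4 libraries.

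Proximal tubule markers were read beside *Cldn2*. Of 8 markers, 0 had an FDR under 0.05 with edgeR's quasi-likelihood test and 4 had an unadjusted p under 0.05, all downward, with a median log2 fold change of -0.44. The exact test and DESeq2 each called 3 (*Cubn*, *Slc13a3* and *Slc22a6*), and the quasi-likelihood test called 4 without wild-type replicate 2. The summed FPKM of the 8 was 491.1 to 624.2 in *Ptpn6*+/mev mice and 706.9 to 855.9 in wild-type mice. The most abundant were the phosphate transporter *Slc34a1*, whose counts are fractional, the organic anion transporter *Slc22a6* and the water channel *Aqp1*, with log2 fold changes of -0.34, -1.11 and -0.44 (FDR = 0.567, 0.0774 and 0.59). Set against the mean log2 FPKM of the 8 markers, *Cldn2* was 1.82 ± 0.04 higher in the heterozygous group and 1.93 ± 0.15 higher in the wild-type group (SD, n = 3 each), and the groups overlapped. The difference in log2 FPKM between the groups was -0.60 for *Cldn2*, -0.48 for the mean of the markers, and -0.12 for *Cldn2* relative to them. In FPKM the shorter implied length of *Cldn2* in wild-type replicates 1 and 3 enlarges its difference. On counts its log2 fold change was -0.50, and its level relative to the markers was not worked out without lengths. The direction of the relative difference is therefore uncertain. The part of the markers in the difference of *Cldn2* was not tested.

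In the thick ascending limb, *Cldn16* and *Cldn19* leaned in opposite directions, and neither reached an FDR under 0.05. Their proteins act together in magnesium and calcium reabsorption. *Cldn16* (chromosome 16, 26463135 to 26482765) showed an FPKM of 13.6, 9.09 and 10.7 in *Ptpn6*+/mev against 7.81, 11.6 and 5.15 in wild-type kidneys. The groups overlapped through wild-type replicate 2, and the log2 fold change was 0.38 (standard error 0.33, FDR = 0.715), or 0.78 without that mouse and 0.11 without wild-type replicate 3. *Cldn19* (chromosome 4, 119255414 to 119262438) showed 10.6, 13.3 and 14.8 against 21.8, 30.7 and 13.2. Wild-type replicate 3 lay within the *Ptpn6*+/mev range, and the log2 fold change was -0.79 (standard error 0.28, FDR = 0.306), or -0.45 without wild-type replicate 2 and -1.03 without wild-type replicate 3.

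The ratio of *Cldn16* to *Cldn19* separated the groups, although neither gene did so alone. The FPKM ratio was 1.27, 0.685 and 0.721 in *Ptpn6*+/mev and 0.358, 0.377 and 0.390 in wild-type kidneys. The wild-type ratios lay close together, while *Cldn19* itself ranged from 13.2 to 30.7 in the same mice. On counts the ratio was 0.699, 0.376 and 0.371 against 0.197, 0.218 and 0.198, so the groups were also apart without the lengths used for FPKM. This ratio was singled out after its values were seen and was not tested. Of the 45 ratios between pairs of the 10 claudins, 18 (40.0%) did not overlap between the groups in FPKM and 19 in counts. Every such pair held *Cldn1*, *Cldn2* or *Cldn19*, so these ratios are not separate observations. The share among pairs of all tested genes was not worked out, and nothing is read from the 40.0%. Among the 10 pairs in which neither gene separated the groups in FPKM, 3 FPKM ratios did so, those of *Cldn4*, *Cldn8* and *Cldn16* to *Cldn19*, and in counts that of *Cldn10* to *Cldn19* was also apart, by a narrow gap.

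**Figure D4:**
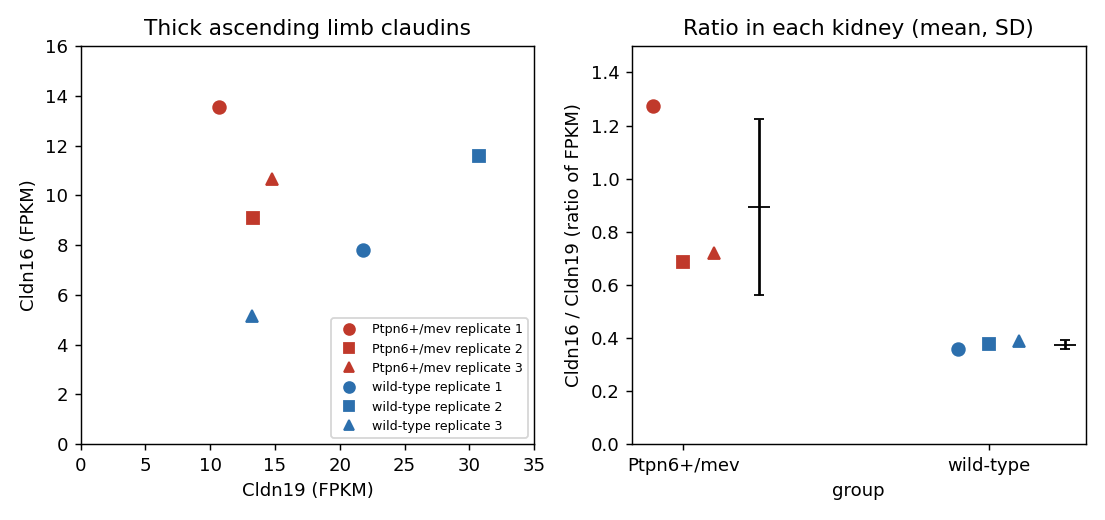
Left, FPKM of *Cldn16* against that of *Cldn19* in each mouse; right, their ratio in each mouse with the mean and SD of 3 mice per group; red, *Ptpn6*+/mev; blue, wild-type. The ratio was 0.358 to 0.390 in wild-type mice and 0.685 to 1.27 in *Ptpn6*+/mev mice.

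*Cldn10* (chromosome 14, 118787908 to 118875489), which has both a thick ascending limb and a proximal tubule form, did not separate the groups. Its FPKM amounted to 51.7, 76.4 and 61.2 in *Ptpn6*+/mev and 76.0, 58.9 and 60.4 in wild-type kidneys. The log2 fold change was -0.07 (standard error 0.15, FDR = 0.905) and turned to 0.050 without *Ptpn6*+/mev replicate 1 and 0.011 without wild-type replicate 1. Gene-level values cannot separate its forms. Outside the 10 genes, *Cldn14*, whose protein blocks cation passage through claudin-16, had an FPKM of 2.61, 3.42 and 2.12 against 4.31, 3.80 and 6.56. All 3 *Ptpn6*+/mev mice were lower, with a log2 fold change of -0.91 (standard error 0.29) and an edgeR FDR of 0.247.

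None of 6 thick ascending limb markers had an FDR or an unadjusted p under 0.05 with edgeR's quasi-likelihood test (0 and 0), the exact test and DESeq2 called 0, and the groups overlapped for all 6. *Umod* (uromodulin) and *Slc12a1*, among the most abundant, had log2 fold changes of -0.13 and 0.39. Without wild-type replicate 2, 1 marker (*Kcnj1*) was called. Relative to the mean log2 FPKM of the 6 markers, *Cldn19* stood at -1.64 ± 0.30 in the heterozygous and -0.88 ± 0.31 in the wild-type group (SD, n = 3 each), a difference of -0.76 with the groups apart. On the same scale *Cldn16* differed by 0.43 and *Cldn10* by -0.12, both with overlapping groups. The values of *Cldn10* on this scale include its proximal tubule form, so they are not levels within the thick ascending limb alone. Without wild-type replicate 2 the markers were 0.36 higher in *Ptpn6*+/mev mice, and the relative differences were -0.77 for *Cldn19*, 0.43 for *Cldn16* and -0.48 for *Cldn10*. Of 4 tested distal convoluted tubule markers, 0 were called by any of the 3 count tests and 1 had an unadjusted p under 0.05, with log2 fold changes of -0.43 for *Slc12a3*, -0.52 for *Calb1* and -0.42 for *Slc8a1*.

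Among the claudins of the distal nephron and collecting duct none reached an FDR under 0.05, and the groups of *Cldn3* and *Cldn7* were apart, with the higher values in *Ptpn6*+/mev mice. *Cldn3* (chromosome 5, 134986214 to 134987472) gave an FPKM of 33.5, 28.4 and 34.7 in *Ptpn6*+/mev and 25.9, 22.7 and 22.2 in wild-type kidneys. Its log2 fold change was 0.38 (standard error 0.12, FDR = 0.25). *Cldn4* (chromosome 5, 134945119 to 134946934), 39279 bases from *Cldn3* with 0 coding genes between, gave 112.7, 97.3 and 131.6 against 90.2, 115.6 and 92.2. Its groups overlapped, with a log2 fold change of 0.12 (standard error 0.16, FDR = 0.832), which was 0.0057 with *Ptpn6*+/mev replicate 3 left out and 0.28 with wild-type replicate 2 left out.

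*Cldn7* (chromosome 11, 69964779 to 69967885) gave an FPKM of 57.8, 58.2 and 68.3 in *Ptpn6*+/mev and 44.5, 55.9 and 51.2 in wild-type kidneys. The gap between the groups was narrow, with a log2 fold change of 0.21 (standard error 0.12, FDR = 0.554), which was 0.12 without *Ptpn6*+/mev replicate 3 or wild-type replicate 1 and 0.29 without wild-type replicate 2. *Cldn8* (chromosome 16, 88560828 to 88563183), whose protein pairs with claudin-4 as a chloride path, gave 16.5, 12.8 and 18.0 against 12.5, 19.2 and 10.2. Its groups overlapped, and its log2 fold change of 0.10 (standard error 0.26, FDR = 0.924) turned to -0.0078 without *Ptpn6*+/mev replicate 3 and -0.11 without wild-type replicate 3. *Cldn4*, *Cldn8* and *Cldn16* shared their 3 lowest libraries, wild-type replicates 1 and 3 and *Ptpn6*+/mev replicate 2. In FPKM the same 3 were lowest for only *Aqp2* and *Aqp3* among the 8 principal cell markers of the collecting duct. They were lowest for only *Slc12a1* among the 6 thick ascending limb markers, and for only *Krt19* and *Krt20* among the 11 injury markers. The other markers of these lists had other lowest libraries, such as the 3 *Ptpn6*+/mev mice for *Scnn1b* and *Scnn1g*. This pattern was singled out after the values were seen, and its share among all genes was not worked out.

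Of 8 principal cell markers of the collecting duct, 0 had an FDR under 0.05 with edgeR's quasi-likelihood test, 2 had an unadjusted p under 0.05, both downward, and the exact test and DESeq2 called 0. The median log2 fold change was -0.32, and *Aqp2*, *Hsd11b2* and *Fxyd4*, the most abundant, had -0.54, -0.17 and -0.21. Relative to the mean log2 FPKM of these markers, the 4 distal claudins were 0.51 to 0.76 higher in *Ptpn6*+/mev mice, with the groups apart for *Cldn3*, *Cldn4* and *Cldn8* and overlapping for *Cldn7*. The nearest mice of the 2 groups were at 2.261 and 2.256 for *Cldn4*, which is hardly a gap. The claudins' own differences in log2 FPKM were 0.45, 0.20, 0.28 and 0.22 for *Cldn3*, *Cldn4*, *Cldn7* and *Cldn8*, and that of the markers was -0.32. Without wild-type replicate 2 the markers differed by -0.02, and the relative differences of the 4 claudins, in the same order, were 0.44, 0.33, 0.38 and 0.49. For *Cldn3* this relative level was 0.87, 0.67 and 0.34 in *Ptpn6*+/mev and 0.18, -0.78 and 0.20 in wild-type kidneys, the low value being wild-type replicate 2, where *Aqp2* was highest. Of 6 intercalated cell markers 0 were called by any of the 3 count tests, and the median log2 fold change was 0.02. The 1 with an unadjusted p under 0.05 was *Slc4a1*, with an FPKM of 3.03, 4.25 and 2.61 against 1.93, 1.86 and 2.41, apart and higher in *Ptpn6*+/mev mice (log2 fold change 0.60, FDR = 0.311), while the most abundant, *Atp6v1g3*, *Slc26a4* and *Aqp6*, had log2 fold changes of -0.19, 0.10 and -0.44. Urothelium markers, from another epithelium with claudins, summed to 7.34 to 21.2 FPKM in *Ptpn6*+/mev mice and 11.8 to 21.2 in wild-type mice. Of 6 tested, 5 had a log2 fold change below 0, with a median of -0.62 over the 6. None of them (0) had an FDR or an unadjusted p under 0.05 or were called by the exact test or DESeq2. The part of these cell types in the claudin values was not tested.

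*Cldn12* (chromosome 5, 5489537 to 5514958) had the smallest SD of the 10 claudins in each group. Its FPKM measured 20.55, 20.03 and 20.83 in *Ptpn6*+/mev and 17.8, 17.5 and 16.8 in wild-type kidneys, with means of 20.5 ± 0.41 and 17.3 ± 0.52 (SD, n = 3 each). The groups were apart by a small step, with a log2 fold change of 0.17 (standard error 0.09, FDR = 0.49).

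Of the 23 other claudin genes, 10 had a count of 0 in all 6 libraries, where 3 counts correspond to at most 0.292 CPM, and 5 were tested. Of these 5, 0 had an FDR under 0.05 with edgeR's quasi-likelihood test, 2 had an unadjusted p under 0.05 (*Cldn6* and *Cldn14*), the exact test called 1 (*Cldn6*) and DESeq2 0. *Cldn6*, a claudin of embryonic epithelia, was low, with an FPKM of 2.38, 1.85 and 1.17 against 0.67, 0.42 and 0.75 from counts of 37, 29 and 19 against 11, 7 and 14. All 3 *Ptpn6*+/mev mice were higher, with a log2 fold change of 1.47 (standard error 0.38, edgeR FDR = 0.177). *Cldn5*, the claudin of endothelium, had 11.6, 13.7 and 14.7 against 12.7, 11.4 and 10.3 (log2 fold change 0.15, FDR = 0.772) and was not low in wild-type replicate 2, where the endothelial markers were. *Cldn15* was 5.54 in wild-type replicate 2 and 13.1 to 15.1 in the other 5 mice, and its log2 fold change of 0.24 (FDR = 0.821) became -0.076 without that mouse.

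Of 25 tight junction partners of the claudins, 0 had an FDR under 0.05 with edgeR's quasi-likelihood test, 2 had an unadjusted p under 0.05 (*Cgn* and *Ildr2*, both upward), and the exact test and DESeq2 called 0. The FPKM of the groups did not overlap in 9 of the 25, 8 with the higher values in *Ptpn6*+/mev mice and 1 with the lower, beside 20.4% of all tested genes (14.0% higher and 6.38% lower), and the list had a median log2 fold change of 0.05. The most abundant, *Cgnl1* (paracingulin), *F11r* (JAM-A) and *Crb3*, had log2 fold changes of -0.03, -0.06 and -0.07. Occludin (*Ocln*) had 0.08 (FDR = 0.838), and *Cgn* (cingulin), with 15.8, 16.6 and 18.5 FPKM against 13.4, 11.5 and 14.3, had 0.30 (FDR = 0.281). Of 12 adherens junction genes 0 were called by any of the 3 count tests and 1 had an unadjusted p under 0.05, and *Cdh16*, *Ctnnb1* and *Ctnna1*, the most abundant, had log2 fold changes of 0.04, 0.12 and 0.07.

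Of 14 genes known to regulate claudins or epithelial junctions, 0 had an FDR under 0.05 with edgeR's quasi-likelihood test, 3 had an unadjusted p under 0.05, and the exact test and DESeq2 each called 1, *Vdr*. *Vdr*, the vitamin D receptor, had an FPKM of 34.9, 29.0 and 26.5 against 40.0, 69.9 and 45.6. All 3 *Ptpn6*+/mev mice were lower (log2 fold change -0.85, standard error 0.25, FDR = 0.222). *Hnf4a*, a transcription factor of the proximal tubule, had a log2 fold change of -0.36 (FDR = 0.308). *Snai2*, a repressor of epithelial junction genes, was low but higher in all 3 *Ptpn6*+/mev mice, at 1.15, 1.23 and 0.73 FPKM against 0.59, 0.36 and 0.64 (log2 fold change 0.90, FDR = 0.364).

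Markers of other cells in the kidney were also compared. In each of the endothelial (6), macrophage (5), neutrophil (5) and fibroblast (5) lists 0 genes had an FDR or an unadjusted p under 0.05 with edgeR's quasi-likelihood test, and the exact test and DESeq2 called 0. Their median log2 fold changes were 0.20, 0.18, 0.02 and -0.09. These medians include wild-type replicate 2, the lowest library in the endothelial and fibroblast sums. Endothelial sums were 225.91 to 240.25 FPKM in *Ptpn6*+/mev mice, 257.96 and 253.62 in wild-type replicates 1 and 3, and 88.26 in wild-type replicate 2. In the same order, fibroblast sums were 101.8 to 141.41, 171.97 and 171.77, and 32.36. Without that library, edgeR's quasi-likelihood test called 2 fibroblast markers. The part of these cells in the claudin values was not tested.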

How the data were processed

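Kidney mRNA of 3 *Ptpn6*+/mev and 3 wild-type mice was grouped by the sample titles. Members and gene lists were chosen with earlier results of these data known. The authors aligned reads with TopHat to GRCm38.p5 (Ensembl) and report that FPKM values were computed with Cufflinks. The authors also deposited an estimated count for each gene. The submitters' processing notes name Bowtie2, TopHat2 2.0.3.12, Cufflinks and RSEM, and which of these tools made the counts could not be worked out. Counts were fractional in 1744 of 21367 genes and were rounded. Depth was 10271590 to 12361745 counts per library, which limits mainly genes with few counts. After edgeR's filterByExpr 13036 genes were tested.

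Tests used edgeR 4.0.16 (TMM, quasi-likelihood) in R 4.3.3 with Benjamini-Hochberg adjustment (FDR) over all tested genes, and a call needed an FDR under 0.05. Standard errors are the size of the log2 fold change divided by the root of F. Tested on simulated data of 13036 genes for this comparison, the test recovered 76% of 2-fold and 95% of 4-fold changes, with 6.04% false calls. The simulated libraries varied independently, and none stood apart as wild-type replicate 2 did. These shares therefore need not hold for the real libraries. The 15 alternatives were other scalings and filters, edgeR's exact test, DESeq2 1.42.0, limma 3.58.1 on log2(FPKM + 1) or log2(FPKM + 0.1), a replicate block, and each library left out. Each library is 1 mouse, so p-values rest on the spread between mice. With 3 mice per group, the tests moderate the spread of each gene by that of the other tested genes.

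Named genes were the 10 members, *Ptpn6*, other claudins with a mean FPKM of at least 1 in a group, genes of each list at an FDR under 0.05 and its 3 most abundant (for the endothelial, macrophage, neutrophil, fibroblast and urothelium lists only sums or medians are given), and the 5 genes most like *Cldn1*. Some genes that this rule names are not reported here, and others were named after their values were seen. Positions are from GENCODE M21 (GRCm38), promoters from RefSeq (GRCm38.p6). Python 3.11.15, numpy 2.4.6, pandas 2.3.3 and matplotlib 3.10.9 were used.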

Additional observations from a re-analysis of the deposited data

How the results depend on the processing

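The log2 fold change of *Cldn1* lay between 1.07 and 1.17 under all 15 alternatives, but its FDR rose to 0.0631 with the replicate number as a block and to 0.0694 without *Ptpn6*+/mev replicate 3, and under either 0 of the 10 claudins were called. edgeR's exact test and DESeq2 each called 2 (*Cldn1* and *Cldn2*), and with 1 library left out 0 to 1 were called. Over all genes, 18 were called in the main test, 52 with no filter on low counts, 390 by the exact test, 387 by DESeq2, 8 by limma on log2(FPKM + 0.1), 1 with the replicate block, and 1 to 237 with 1 library left out, the fewest when that was *Ptpn6*+/mev replicate 3 and the most when it was wild-type replicate 2. Same-numbered mice of the 2 groups deviated from their group means with correlations of -0.14, -0.18 and -0.13, which gives no sign of a pairing. With 3 mice per group such correlations cannot settle whether same-numbered mice share more than the number.

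The exact test called 1 other claudin (*Cldn6*), and it and DESeq2 called 1 claudin regulator and 3 proximal tubule markers each, and 1 and 2 injury markers. With no filter 1 proximal tubule marker was called. With 1 library left out the calls ranged from 0 to 4 for proximal tubule markers, 0 to 2 for injury and for fibroblast markers and 0 to 1 for thick ascending limb markers, each highest without wild-type replicate 2. With 1 library left out the log2 fold change of *Cldn8* was -0.11 to 0.44, that of *Cldn10* -0.21 to 0.050 and that of *Cldn15* -0.076 to 0.43. That of *Cldn5* was 0.055 to 0.24. The cause of these changes was not tested. For the single claudins and *Ptpn6*, 214 values under an alternative kept direction and side of the threshold, 3 gained and 2 lost the call, and 5 turned direction. Levels relative to segment markers without wild-type replicate 2 were an alternative chosen after seeing the data. Depth limits the claudins with few counts, such as *Cldn6*.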
